A study of Rattus norvegicus with 19 samples.

Results

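Of the 29107 transcripts measured in sorted rat mast cells, 66 were abundant in bone marrow, nearly missing from skin, and still present in hypothalamus at postnatal day 2 (PN2). They were chosen from group means in CPM, counts scaled to a common library total: at least 20 CPM in bone marrow, at least 20 times the skin level, and between 0.1 and 2 times the bone marrow level in hypothalamus, all at PN2. The first 2 conditions alone were met by 275 transcripts, of which 204 lay below the hypothalamus window and 5 above it. The levels in bone marrow, skin and hypothalamus at PN2 therefore chose the members, and these levels are given as a description with no test. Hippocampus at PN2 and at postnatal day 7 (PN7), and the hypothalamus library of PN7, did not enter the choice.

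All cells came from wild-type (WT) rat pups perfused with buffered saline, and the strain and sex are not given in the labels used here. Bone marrow (4 libraries), skin (5), hippocampus (4) and hypothalamus (2) were taken at PN2, and hippocampus (3) and hypothalamus (1) at PN7. Each library pooled cells of 6 animals, enriched on Percoll. The sort kept live singlets that stained strongly for CD45 and for FcεRI but not for CD11b. The labels call the replicates independent, so the tests measure the spread between pools. The lone hypothalamus library of PN7 has no replicate.

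Mast cells are tissue immune cells that store histamine and proteases in granules and are triggered through FcεRI, the high-affinity receptor for IgE. They descend from blood-forming progenitors that leave the yolk sac, fetal liver or bone marrow and complete their maturation in the tissue they enter. Skin is a classical home of mature connective-tissue mast cells, whereas marrow holds blood cell precursors of many lineages, and basophils there carry the same receptor. In the brain, mast cells are known from the meninges, the hippocampal border and the thalamic and hypothalamic region.

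The files list Ensembl transcript identifiers without gene names, and the gene table used here, for the later assembly GRCr8, holds an Ensembl identifier for 0 of its 47357 genes. None of the members could therefore be named, placed on the genome or given a sequence, and the markers of mast cells and of other blood cells could not be read. Whether cells other than mast cells contributed to any sort was not tested. In bulk RNA, fewer cells of a type and less RNA per cell cannot be told apart. Of the members, 10 form 5 pairs with identical values in all libraries, so there are 61 distinct profiles.

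Library totals ran from 16196856 to 22563833 estimated counts in bone marrow, 11704985 to 26394623 in skin, 19935250 to 22967152 in hippocampus at PN2 and 10329777 to 12870442 at PN7. The 2 hypothalamus libraries of PN2 were shallower, at 5495252 and 5607810, and that of PN7 held 9792422. A pair of libraries stood apart. Hypothalamus PN2 replicate 2 detected 13403 transcripts against 16231 in replicate 1 at nearly the same depth. Bone marrow replicate 4 was below the other 3 marrow libraries for 33 of the 66 members and above them for 22, whereas over all 20521 tested transcripts these shares were 26.3% and 43.0%.

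The members spanned a wide range of abundance in bone marrow, from 20.02 to 9816 CPM with a median of 46.0, and 3 of them made up 73.8% of their summed marrow level. In skin no member reached a mean above 6.43 CPM, and 30 were below 1 CPM. The nearest transcripts on either side of each limit were close in value: 20.02 and 19.88 CPM for the marrow floor, 20.1-fold and 19.5-fold for marrow over skin, and 0.1005 and 0.0968 for hypothalamus over marrow. At the upper limit the highest member had a hypothalamus level 1.52 times that of marrow and the next transcript outside 2.04 times.

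**Figure D1:**
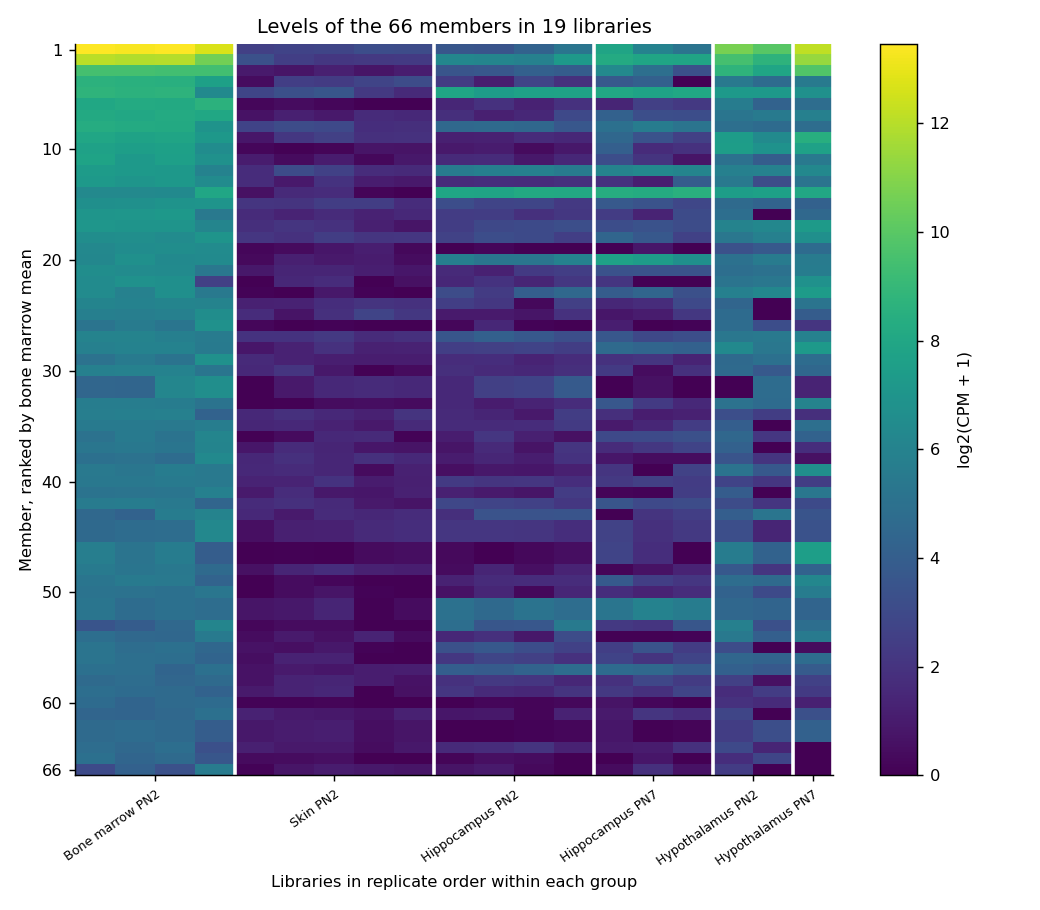
Colour gives log2(CPM + 1) for the 66 members (vertical axis, ranked by bone marrow mean) in the 19 libraries (horizontal axis, 6 groups separated by white lines). Bone marrow is brightest in the top rows, with a median member mean of 46.0 CPM, and skin is dark. Most members lie between skin and marrow in hypothalamus. In hippocampus at PN2, 7 members are at 0.5 of the marrow mean or above.

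The most abundant member, ENSRNOT00000091167.1, held 11235, 10342, 11104 and 6581 CPM in bone marrow replicates 1 to 4 and 4.87 to 8.03 CPM in the 5 skin libraries. It held 1653 and 982 CPM in the hypothalamus libraries of PN2 and 4667 CPM in that of PN7, but 11.1, 10.3, 17.7 and 36.6 CPM in hippocampus at PN2. Every hypothalamus library thus exceeded every PN2 hippocampus library, and each stayed below every marrow library. The next, ENSRNOT00000049315.4, held 4319, 3832, 4045 and 1532 CPM in marrow, 729 and 418 CPM in hypothalamus at PN2 and 2679 CPM at PN7. Its hippocampus libraries of PN2 held 72.8, 69.7, 59.6 and 147 CPM, so it was less depleted there than the first. These are the 2 highest members in marrow, and also in hypothalamus at both ages. The third by marrow level was at 661 to 728 CPM in marrow, at 436 and 236 CPM in hypothalamus at PN2, at 881 CPM in the PN7 hypothalamus library and at 10.9 to 16.6 CPM in hippocampus at PN2.

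Presence in hypothalamus at PN2 rested on both libraries for 38 of the 66 members, each of which reached 0.1 of the marrow mean in both. Another 25 reached it in replicate 1 only and 3 in replicate 2 only. Replicate 1 had the higher level for 47 members, against 54.7% of all tested transcripts. In replicate 2, 9 members had no counts, which allows up to 0.535 CPM (3 counts), while replicate 1 held 4.19 to 28.6 CPM of them; 2 members were at 0 in replicate 1. The PN7 library, which the choice did not use, detected 8 of those 9. Of the 38 found in both PN2 libraries, 36 also reached 0.1 of the marrow mean at PN7. The membership itself moved with these libraries: the rule gives 46 transcripts without hypothalamus replicate 1, 41 of them among the 66, and 86 without replicate 2, which include 63 of the 66. Without bone marrow replicate 4 it gives 60, sharing 56.

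**Figure D2:**
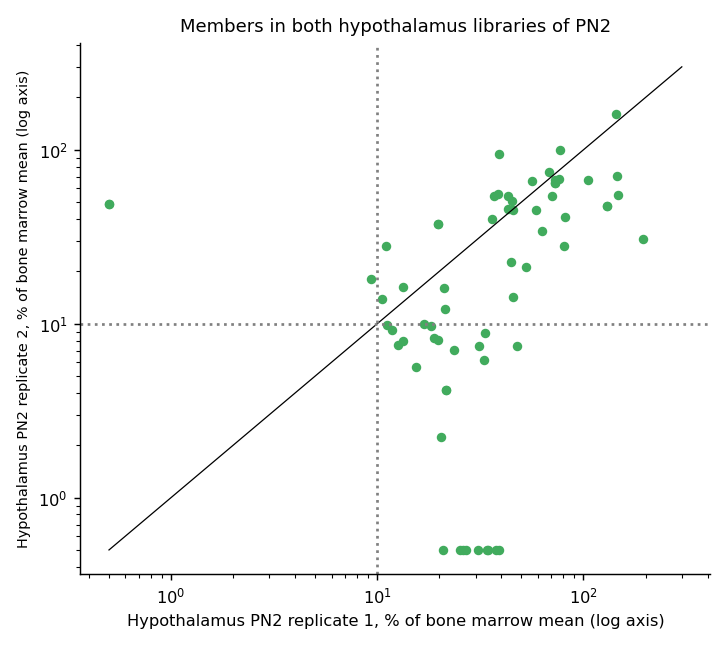
Each point is a member, with its level in hypothalamus PN2 replicate 1 (horizontal) and replicate 2 (vertical) as a percent of its bone marrow mean, on log axes. Dotted lines mark 10%, the solid line equal levels, and values below 0.5% are drawn at 0.5%; the 9 points on the bottom edge had no counts in replicate 2.

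The summed level of the 66 members followed the order bone marrow, hypothalamus PN7, hypothalamus PN2, hippocampus PN7, hippocampus PN2 and skin. In marrow it was 21479, 19856, 21036 and 13173 CPM in replicates 1 to 4, a mean of 18886 ± 3870 CPM (SD, n = 4), and in skin 102 ± 19.3 CPM (SD, n = 5). The hypothalamus libraries held 4917 and 3206 CPM at PN2, 21.5% of the marrow mean, and 11494 CPM at PN7 (95% exact binomial interval 11428 to 11561 CPM, counting error only), 60.9% of it. Hippocampus held 942, 848, 950 and 1131 CPM at PN2, 5.12% of the marrow mean, and 1918, 1539 and 1441 CPM at PN7, 8.64% of it. All 3 hippocampus libraries of PN7 were above all 4 of PN2, and the hypothalamus libraries were above both, without overlap.

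The 3 most abundant members weighed differently in each tissue. They made up 73.8% of the sum in marrow, 71.6% in the PN7 hypothalamus library and 54.8% in hypothalamus at PN2. In hippocampus they made up 12.3% at PN2 and 24.99% at PN7. Without them, the sum of the other 63 was 4944 ± 387 CPM in marrow (SD, n = 4). In hippocampus it was 849 ± 72.5 CPM at PN2 (SD, n = 4) and 1225 ± 69.9 CPM at PN7 (SD, n = 3). The hypothalamus libraries held 2099.8 and 1570 CPM of them at PN2 and 3267 CPM at PN7. Bone marrow replicate 4 lay nearer to the others in this sum, at 4394 CPM against 4954 to 5225 CPM.

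**Figure D3:**
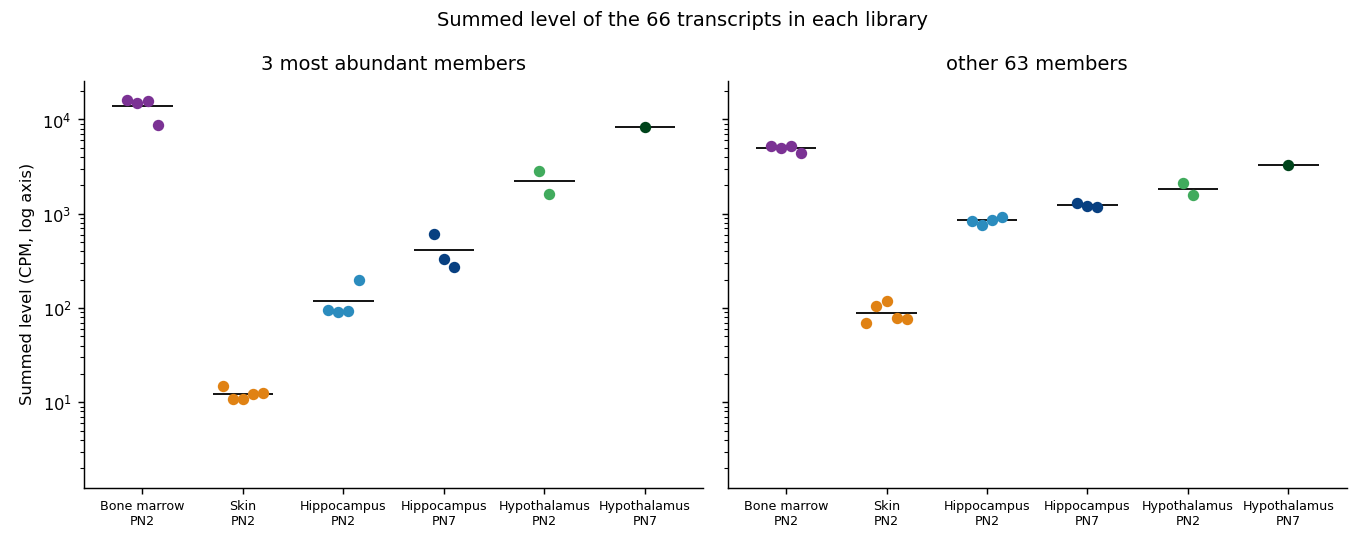
Points are libraries and bars group means of the summed level (CPM, log axis) of the 3 most abundant members (left) and of the other 63 (right), by tissue and age. On the left the hippocampus libraries of PN2 lie at 91.4 to 197 CPM and the hypothalamus libraries at 1636 CPM or above; on the right the steps between tissues are smaller.

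Relative to its own marrow level, the median member stood at 4.30% in hippocampus at PN2 (single libraries 2.89% to 5.81%) and at 6.82% at PN7 (6.26% to 7.37%). In the PN7 hypothalamus library it stood at 47.3%, and at PN2, where the choice required 10%, at 26.01%. At PN7 in hypothalamus 54 members reached 0.1 of their marrow mean and 17 exceeded it. The 204 marrow transcripts that met the same conditions against skin but lay below the hypothalamus window had medians of 0.421% and 0.460% in hippocampus at PN2 and PN7, and of 0.295% in hypothalamus at PN7. Of those 204, 31 (15.2%) reached 0.1 of marrow in the PN7 hypothalamus library, against 81.8% of the members. In hippocampus at PN2 this was reached by 6 of the 204 (2.94%) and by 20 of the 66 members (30.3%). The hypothalamus level at PN2 divided the 66 from the 204, so a gap between them in hypothalamus at PN7 was favoured by the choice. The hippocampus levels were divided by the same marrow mean that the window used, so their gap was not independent of the choice either. Transcripts are not replicates, so these shares carry no test.

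**Figure D4:**
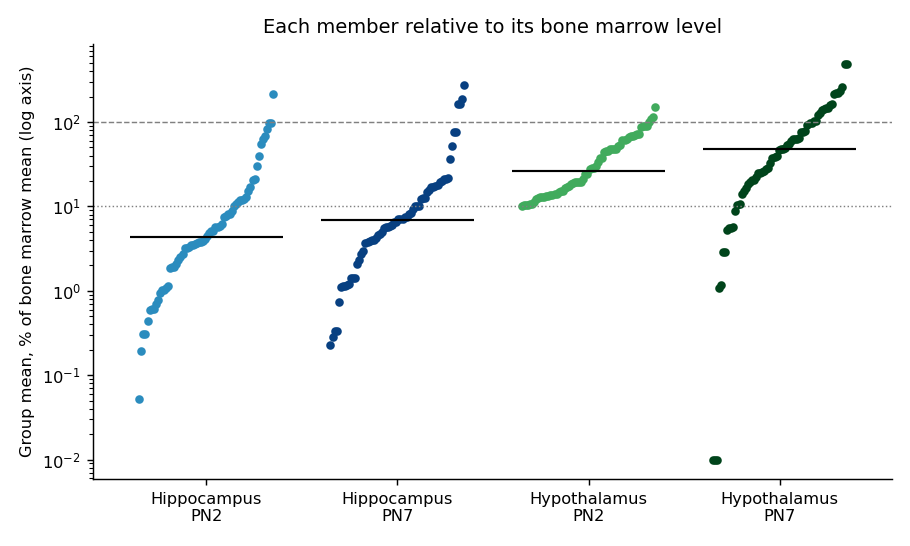
Each point is a member's group mean as a percent of its bone marrow mean (log axis), sorted within 2 hippocampus and 2 hypothalamus groups; bars are medians, the dashed line marks the marrow level and the dotted line 10%. The medians are 4.30%, 6.82%, 26.01% and 47.3%, and 3 members at 0 in hypothalamus at PN7 are drawn at 0.01%.

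By their hippocampus level at PN2 the members fall into 3 classes. In 20 it was at least 0.1 of marrow, in 35 between 0.01 and 0.1, and in 11 below 0.01. The class of 11 had a median of 0.230 CPM in hippocampus at PN2 and 33.0 CPM in hypothalamus at PN2, and stood at 76.8% of marrow in the PN7 hypothalamus library. It includes pairs with identical values, and 0.230 CPM and 76.8% are values of such pairs. With each pair counted once these medians were 0.538 CPM and 0.475 of marrow, and that of 33.0 CPM did not change. The class of 20 had nearly equal medians relative to marrow in hippocampus at both ages (20.9% and 20.4%) and in hypothalamus at both ages (48.8% and 51.7%). The ratio of hypothalamus to hippocampus at PN2 had a median of 5.91 and ran from 0.444 to 237, with 24 members at 10 or above and 8 at 1 or below. For 39 members both hypothalamus libraries lay above all 4 hippocampus libraries at PN2, against 8.62% of tested transcripts. The rule required the hypothalamus level, so nothing is read from that count.

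In hippocampus at PN2, 7 members stood at 0.5 of their marrow mean or above. ENSRNOT00000026992.6, the highest in hippocampus at PN2, held 244, 234, 284 and 277 CPM there and 328, 313 and 377 CPM at PN7. It held 176 and 196 CPM in hypothalamus at PN2 and 269 CPM at PN7, against 78.6, 79.1, 81.9 and 251 CPM in marrow and at most 2.21 CPM in any skin library. Only marrow replicate 4 came up to the brain libraries. ENSRNOT00000022774.6 held 237, 171, 207 and 218 CPM in hippocampus at PN2, 150 and 149 CPM in hypothalamus at PN2, and 428, 393, 414 and 83.9 CPM in marrow, where replicate 4 was this time the lowest. In skin it ranged from 2.08 to 11.1 CPM. Across the 5 other members at 0.5 of marrow or above in hippocampus at PN2, hippocampus means were 18.6 to 47.6 CPM and skin means 0.187 to 0.919 CPM. These 5 include a pair with identical values. Among the 4 tissues at PN2, skin had the lowest mean for each of these 7, and skin was among the tissues that chose them. Over all 66 members the lowest hippocampus library of PN2 was above the highest skin library for 30, against 8.35% of tested transcripts, and since the rule required low skin levels nothing is read from that count.

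Hippocampal mast cells of PN7 were compared with those of PN2 to ask which members changed with age in the brain region that did not enter the choice. All 66 members passed the filter on low counts over the 19 libraries, 8 of them only through libraries outside hippocampus. Of the 66, 11 rose and 2 fell (adjusted p below 0.05, edgeR quasi-likelihood test over all 20521 transcripts). The calls include 2 of those 8, and the 11 include both transcripts of a pair with identical values. Over all tested transcripts 3.43% rose and 5.51% fell. Among the 204 marrow transcripts low in hypothalamus at PN2, 14 rose and 1 fell. The median log2 fold change was 0.60 over the members and 0.00 over all transcripts, and 50 members had a positive value, against 46.2% of all transcripts. The libraries did not overlap and were higher at PN7 for 15 members and lower for 4, against 14.9% and 13.6% of all transcripts; the 15 are thus 22.7% of the members. With the filter and the fit on the 7 hippocampus libraries alone, 58 members were tested, of which 9 rose and 3 fell, sharing 7 and 1 with the calls above.

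Among the members that rose, ENSRNOT00000018549.5 went from 4.64, 4.88, 5.57 and 4.49 CPM at PN2 to 24.4, 20.2 and 17.2 CPM at PN7. The rise was 2.02 ± 0.30 on the log2 scale (SE), with an adjusted p of 0.000354 from edgeR. It was at 45.3 to 61.7 CPM in marrow, 81.5 and 39.8 CPM in hypothalamus at PN2 and 147 CPM at PN7, so the PN7 hippocampus level was still below every hypothalamus library. ENSRNOT00000017232.5 went from 1.31, 1.32, 2.11 and 1.79 CPM to 21.8, 9.36 and 4.94 CPM, which is 2.83 ± 0.48 on the log2 scale (SE) with edgeR's adjusted p at 0.00133. The PN7 libraries were all higher, and they differed among themselves more than those of PN2. The most abundant member, ENSRNOT00000091167.1, held 234, 61.8 and 35.7 CPM at PN7 and rose by 2.51 ± 0.52 on the log2 scale (SE; adjusted p = 0.00543, edgeR), although its lowest PN7 library was just below the highest of PN2. Without hippocampus PN7 replicate 1 its difference was 1.35 and the call was lost (adjusted p = 0.0663, edgeR). ENSRNOT00000049315.4 held 300.2, 244 and 229.6 CPM and rose by 1.53 ± 0.40 (SE; adjusted p = 0.0249, edgeR). Its libraries did not overlap, but the call was lost when any 1 of 5 libraries was left out (PN2 replicates 1, 2 and 3, PN7 replicates 1 and 2), with adjusted p from 0.0659 to 0.0857 in those edgeR fits.

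Hippocampus PN7 replicate 1 had the highest of the 3 PN7 values for 10 of the 11 members that rose, for 30 of all 66, and for 32.8% of all tested transcripts. Without it 4 of the 11 were still called and no other member, and without hippocampus PN2 replicate 1, 2 or 3 it was 6 each. All PN7 hippocampus libraries were also shallower than those of PN2. With all libraries thinned to a common depth, that of the shallowest, 9 members rose, 8 of them among the 11.

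The 2 members that fell were both below 10 CPM, the level set for naming, and are named because they are so few. ENSRNOT00000019004.5 held 1.80, 2.65, 0.853 and 7.66 CPM in hippocampus at PN2 and had 2 counts over the 3 libraries of PN7, against 291 counts over the 4 of PN2. The ratio of PN2 to PN7 was 56.7, with a 95% counting interval from 15.5 to 470.1 (adjusted p = 0.00187, edgeR). ENSRNOT00000019062.6 held 1.04, 1.69, 1.10 and 2.96 CPM at PN2 and 0.777, 0.374 and 0.387 CPM at PN7, and fell by 1.74 ± 0.51 on the log2 scale (SE; adjusted p = 0.0419, edgeR). That call was lost when any 1 of 5 libraries was left out (PN2 replicates 2 and 4 and each of PN7), with adjusted p up to 0.157 in those edgeR fits.

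The PN7 hypothalamus library was set against the 3 PN7 hippocampus libraries to describe the difference between the regions at that age. Their values did not enter the choice, but the members were chosen for their hypothalamus level at PN2, with no such demand on hippocampus. A higher level in hypothalamus at PN7 was thus favoured by the choice, also when set against the 204 transcripts low in hypothalamus at PN2. The counts below are therefore a description and no independent support. In the fit over all groups the lone library is assumed to vary like the libraries of the other groups, so its calls rest on their spread and have no replicate of their own. Of the 66 members, 28 were higher in hypothalamus and 2 lower (adjusted p below 0.05, edgeR), against 3.74% and 3.84% of all 20521 transcripts. The 28 include both transcripts of 2 pairs with identical values. The median log2 fold change was 2.45 over the members, also with the members at 0 set to 3 counts, and 0.00 over all transcripts. Among the 204 marrow transcripts low in hypothalamus at PN2, 22 were higher and 3 lower. The hypothalamus library lay above all 3 hippocampus libraries for 48 members and below for 10, against 40.9% and 24% of all transcripts. With only these 4 libraries in the fit, which tested 64 members, 10 were higher and 1 lower; the 10 were all among the 28, and the 1 was ENSRNOT00000022774.6, which is neither of the 2.

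The log2 fold changes of the 28 ran from 2.11 to 9.23. The top value belongs to ENSRNOT00000019004.5, one of the 2 members that fell in hippocampus, with 46.0 CPM in the PN7 hypothalamus library (450 counts) against 2 counts over the PN7 hippocampus libraries. The ratio was 779, with a 95% counting interval from 214 to 6448 (adjusted p = 0.000203, edgeR). It held 42.4 and 15.9 CPM in hypothalamus at PN2 and 21.3 to 44.8 CPM in marrow, so hypothalamus and marrow overlapped. ENSRNOT00000026115.5 held 25.02 CPM in hypothalamus at PN7 and 0, 0.749 and 0 CPM in hippocampus, or 6.45 ± 1.06 on the log2 scale (SE), where edgeR gave an adjusted p of 0.00162. In hypothalamus at PN2 it held 9.28 and 12.3 CPM, in hippocampus at PN2 it had counts in 1 of 4 libraries, and in marrow it was at 78.0 to 94.5 CPM. Its call was lost with only the groups compared (adjusted p = 0.122, edgeR).

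The most abundant members were among the 28 as well. ENSRNOT00000091167.1 was higher in hypothalamus by 5.20 ± 0.71 on the log2 scale (SE; adjusted p = 0.000534, edgeR; 0.0722 with only the groups compared) and ENSRNOT00000049315.4 by 3.17 ± 0.55 (SE; adjusted p = 0.00244, edgeR). ENSRNOT00000017232.5 (345 CPM) and ENSRNOT00000018549.5 (147 CPM) were higher by 4.63 ± 0.61 and 2.63 ± 0.40 (SE; adjusted p = 0.000417 and 0.00099, edgeR). Both had risen in hippocampus between PN2 and PN7, and that comparison shares the PN7 hippocampus libraries with this one. The 20 members at 0.1 of marrow or above in hippocampus at PN2 had PN7 medians of 51.7% of marrow in hypothalamus and 20.4% in hippocampus. For the 11 below 0.01 of marrow these medians were 76.8% and 1.40%, both the values of a pair with identical values. With each such pair counted once, the medians of this class were 0.475 of marrow in hypothalamus and 0.0116 in hippocampus. The hypothalamus median was then below that of the 20. The classes were formed by the hippocampus level at PN2, so a wider gap in the 11 was favoured by their definition. Nothing is read from it, and the difference between these classes was not tested.

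The 2 members lower in hypothalamus at PN7 differed in level. ENSRNOT00000033648.4 held 46.8 CPM there against 208, 175 and 101 CPM in hippocampus, a difference of -1.996 ± 0.58 on the log2 scale (SE) with an adjusted p of 0.0451 from edgeR. In hippocampus it had risen from 54.1, 37.6, 37.9 and 61.0 CPM at PN2 by 1.72 ± 0.33 on the log2 scale (SE; adjusted p = 0.00356, edgeR), whereas the hypothalamus libraries of PN2 held 31.8 and 47.1 CPM. The call against hypothalamus was lost without hippocampus PN7 replicate 1 or 2, with RLE factors, and with only the groups compared. ENSRNOT00000022364.4 had 0 counts in the PN7 hypothalamus library and 0.932, 1.03 and 2.61 CPM in hippocampus. The hippocampus mean was 4.98 times a floor of 3 counts in the hypothalamus library. With counting error on both sides, the lower bound of the 95% interval of the ratio was 3.77. This transcript is named for the small number of such members, since it was below 10 CPM. Its call was lost with only the groups compared, with limma voom, and with all libraries thinned to a common depth.

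**Figure D5:**
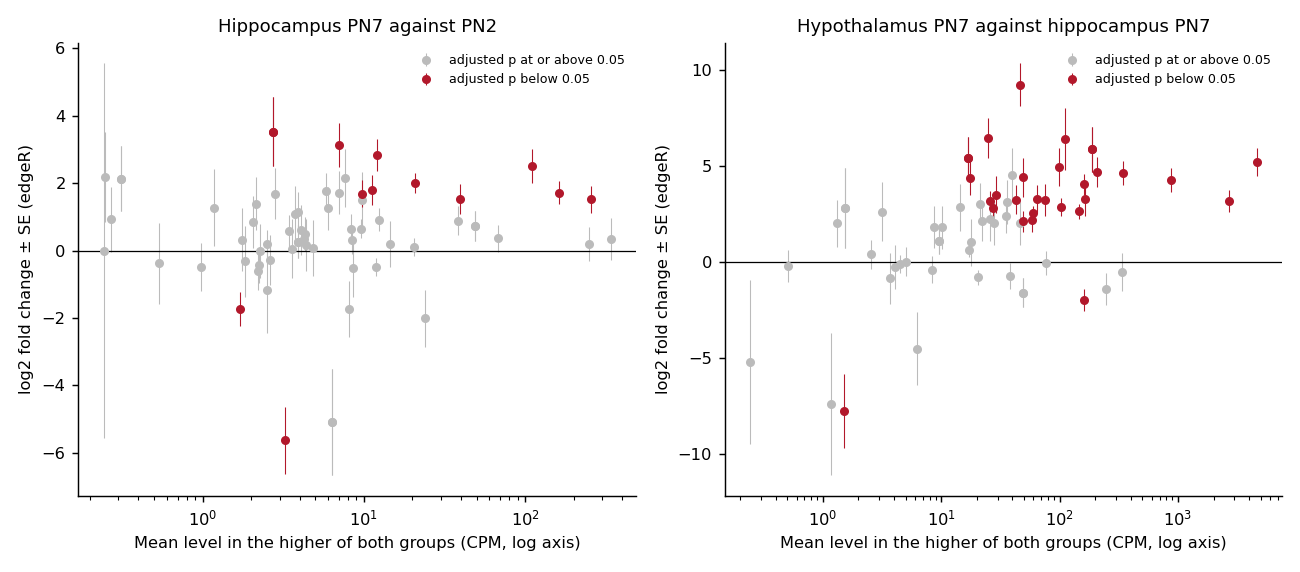
Points are the 66 members, with the mean level in the higher group (CPM, log axis) against the log2 fold change with its SE from edgeR, for hippocampus PN7 against PN2 (left) and hypothalamus PN7 against hippocampus PN7 (right). Red marks adjusted p below 0.05: 11 higher and 2 lower on the left, 28 higher and 2 lower on the right.

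Against the tissues that did enter the choice, the PN7 hypothalamus library is described without a test. It was above both PN2 hypothalamus libraries for 36 members, and below both for 11, against 37.8% and 14.9% of all transcripts. It was above all 4 marrow libraries for 14 members and below all 4 for 40, against 34.5% and 31% of all transcripts. Age and the single pool cannot be told apart in this library.

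Bone marrow replicate 4 divided the members. For the 33 members in which it was below the other 3 marrow libraries, the others averaged 1.91 times its level (median), and for the 22 in which it was above, it was at 2.03 times the others. Of the 9 members without counts in hypothalamus PN2 replicate 2, 6 were among the 22 and 2 among the 33. These sets were formed after the values had been seen, and the difference between them was not tested.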

How the data were processed

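RNA of sorted mast cells was measured in 19 libraries of 6 groups. The authors deposited estimated counts per transcript with no scaling of the columns. Build Rnor_6.0 and kallisto, which divides shared reads among transcripts, are named per the submitters' processing notes; for versions and options the sources used here give nothing. Further, per the labels' protocols SMART-Seq v4 and Nextera XT amplify by PCR, so intervals and floors cover counting error only. Levels are CPM, counts divided by the column sum. For tests, estimated counts were rounded, filtered with filterByExpr (20521 kept) and scaled by TMM. All libraries entered 1 edgeR 4.0.16 quasi-likelihood fit of group means (R 4.3.3) with Benjamini-Hochberg adjustment, called below 0.05. SE is the log2 fold change divided by the square root of F. On simulated counts the fit recovered 34% of 2-fold and 82% of 4-fold changes in hippocampus PN7 against PN2. It recovered smaller shares of both in hypothalamus PN7 against hippocampus PN7, so members without a call may still differ. Replicates differed beyond counting noise (lowest chi-square per degree of freedom 14.5).

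The members and lists were chosen with earlier results of these data known. Named transcripts were the 2 highest members in marrow, in hypothalamus (each age) and in hippocampus at PN2, and, for each tested comparison, the 2 largest rises and falls with a mean of at least 10 CPM and no overlap; others are said to be outside this rule. The 19 gene lists prepared could not be matched. Alternatives were RLE factors, DESeq2 1.42.0, limma 3.58.1 voom, no filter, a stricter filter (5 CPM in 3 libraries), a fit of only both groups, a replicate block, each library left out, and other limits of the rule. Leaving out the libraries numbered 4 and 5, thinning, and the marrow levels without replicate 4 were added after seeing the data. Figures were drawn with matplotlib 3.10.9.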

Additional observations from a re-analysis of the deposited data

Results flagged for a closer look

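Among the named members and the summed level, 6 values lay far from the rest of their group, in groups of 4 or 5 libraries; chance flags about 1 in 20 groups. In bone marrow replicate 4, ENSRNOT00000026992.6 was at 251 CPM against 78.6 to 81.9 CPM in the other 3, ENSRNOT00000022774.6 at 83.9 CPM against 393 to 428 CPM, and ENSRNOT00000019062.6 at 84.0 CPM against 26.3 to 32.4 CPM. Over all 66 members such a value was found in 15 in marrow, 14 of them in replicate 4, against 20.1% of every 20th tested transcript. In skin it was found in 3 members and in hippocampus at PN2 in 7, against 11.9% and 14.3% of every 20th tested transcript. ENSRNOT00000049315.4 was at 9.15 CPM in skin replicate 1 where the remaining 4 held 3.61 to 4.68 CPM. The same transcript was at 147 CPM in hippocampus PN2 replicate 4 against 59.6 to 72.8 CPM. ENSRNOT00000026115.5 was at 0.182 CPM in hippocampus PN2 replicate 2 and had no counts in the other 3 libraries. That value is near the floor of 3 counts in that library, 0.137 CPM.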

How the results depend on the processing

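The 15 named calls kept their direction in every alternative run, in 208 values, of which 181 kept their side of the threshold and 27 lost it: 11 for ENSRNOT00000019062.6 and 6 for ENSRNOT00000049315.4 in hippocampus PN7 against PN2. The median log2 fold changes of the members, which have no threshold, also kept their direction. Counts moved more, and the cause was not tested. In hippocampus PN7 against PN2, 1 member was lower with RLE factors, with limma voom and without the libraries numbered 4 and 5, and 4 with DESeq2 and with the stricter filter. Over all transcripts 1378 were higher and 1724 lower with DESeq2, 2067 and 2242 with limma voom, and 1381 higher with only the groups compared. Leaving out 1 library gave 4 to 13 members higher and 1 to 2 lower, and 372 to 548 transcripts higher and 701 to 991 lower. In hypothalamus PN7 against hippocampus PN7, 10 members were higher and 1 lower with only the groups compared. There was 1 lower with RLE factors and after thinning, and 5 without the libraries numbered 4 and 5. Over all transcripts 1328 were higher and 1352 lower with DESeq2, 2338 higher with limma voom, 409 higher with only the groups compared, and 1232 lower without the libraries numbered 4 and 5. Leaving out 1 library gave 20 to 25 members higher and 1 to 2 lower, and 467 to 764 transcripts higher. The number of members was 100 at 10 times skin, 35 at 40 times, 86 and 32 with floors of 10 and 50 CPM, 99 and 36 with lower limits of 0.05 and 0.2, and 46 to 86 without 1 library. Without the 5 members with most counts the sums were 4492 CPM in marrow, 81.97 in skin, 381 and 637 in hippocampus at PN2 and PN7, and 1499 and 2891 in hypothalamus; with TMM scaling the PN7 hypothalamus sum was 10220 CPM. Levels relative to marrow became 7.55% in hippocampus and 45.7% in hypothalamus at PN7 with TMM scaling, ran from 6.65% to 7.38% in hippocampus at PN7 without 1 of its libraries, and were 6.43% there and 45.3% in hypothalamus at PN7 without marrow replicate 4. The replicate numbers do not pair the hippocampus libraries: deviations of same-numbered libraries correlated at 0.0376, 0.0239 and -0.118, and none of the 3 PN7 libraries correlated best with its own number. With the replicate block, 8 members were higher and 3 lower in hippocampus PN7 against PN2, and 25 and 2 in hypothalamus against hippocampus. Depth limits the hypothalamus libraries of PN2 most, where 3 counts amount to 0.535 to 0.546 CPM. No library could be left out of the hypothalamus group of PN7.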
